A study of Mus musculus with 36 samples.

Results

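The response of wild-type (WT) mouse keratinocytes to 72 h of raised calcium was read from 6 of the 36 libraries of the series, 3 grown in high calcium medium (HCM) and 3 kept in low calcium medium (LCM), which were taken by genotype, time and medium as the labels give them. The cells were primary keratinocytes of newborn Pkp4+/+ pups on a C57BL/6J background, grown on collagen I at a temperature below that of the body, in a medium with 50 µM CaCl2 and with EGF, hydrocortisone, insulin and cholera toxin. HCM was the same medium with 1.2 mM CaCl2 added. The growth supplements and the low calcium were therefore shared by every library before the switch. WT cells at 24 h, PKP4-KO cells at 72 h (homozygous for a knockout allele of Pkp4, the gene of the armadillo protein plakophilin 4, that lacks a critical exon) and Rescue cells at 72 h (PKP4-KO cells with lentiviral EGFP-tagged human PKP4), each again 3 libraries in HCM and 3 in LCM, were used for comparison. The labels give 3 biological replicates per condition without saying whether they came from separate pups. The p-values rest on the spread between replicate libraries, estimated over all 36 libraries together and not from these 6 alone. That spread may in part be technical.

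Keratinocytes in low calcium stay in a basal, dividing state with few intercellular junctions. A rise in extracellular calcium lets classical and desmosomal cadherins engage, and over the following days the cells stratify and switch from basal to spinous and then to granular and cornified gene programmes. The last of these builds the cornified envelope, a sheath of small proline-, glycine- and glutamine-rich proteins that transglutaminases cross-link beneath the plasma membrane and to which ceramides are attached. Many of the envelope genes lie side by side in the epidermal differentiation complex, a gene cluster on mouse chromosome 3.

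The 6 libraries held 13837045 to 21658763 counts. Levels are given as CPM, counts scaled to a common library total, after TMM scaling, and differences as log2 HCM minus LCM. The defining keratins of the labelled cell type were abundant: Krt14, the basal keratin, lay between 30059 and 39040 CPM in every library and Krt5, its partner, between 11030 and 20272 CPM. Of the 8 fibroblast markers the 4 that were tested summed to at most 1.47 CPM before TMM scaling in any of the 6 libraries, and Dcn, Lum, Pdgfrb and Dpt had no read. The melanocyte list reached 0.849 CPM, the muscle list 0.0723 CPM, the endothelial list 1.66 to 5.31 CPM and the immune list 32.7 to 42.8 CPM, nearly all of the last from Cd68, while Cd3e, Cd207, Tyrobp, Tyr, Dct, Sox10, Cdh5 and Emcn were at 0. The Merkel list was lower in HCM, at 6.14 to 18.3 against 21 to 26.7 CPM, with Atoh1 and Piezo2 at 0. Its part in the results below was not tested. Pkp4 had 652, 746 and 326 counts in the HCM libraries and 786, 1129 and 860 in the LCM libraries, and the EGFP-PKP4 transgene row had 14 to 20 counts in HCM and 56 to 100 in LCM, although WT cells carry no transgene. All 37 mitochondrial genes were at 0 in all 6 libraries.

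HCM replicate 3 stood apart from the other libraries. Its TMM factor was 0.705, whereas the other 5 lay between 0.959 and 1.17. On the first principal component of the 6 libraries, which carried 59.8% of the variance, it was at -97.5 against -28.4 and -19.8 for the other HCM libraries and 39.6 to 55.7 for LCM. The deviation followed gene length: genes in the shortest of 5 equal bins, 55 to 1654 bp, had a median log2 deviation from the LCM mean of 0.792 in replicate 3, against 0.227 and 0.115 in replicates 1 and 2, and genes in the longest bin stood at -0.47 against -0.0652 and -0.0247. Values without this library are given beside the totals and the gene lists where they move a count described here.

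**Figure D1:**
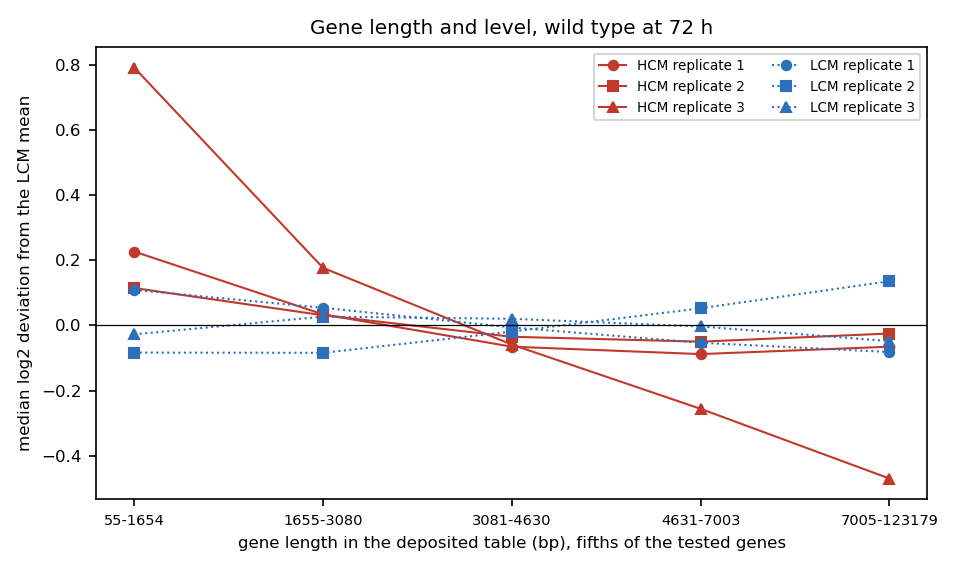
Median log2 deviation from the mean of the 3 LCM libraries (vertical axis) in 5 equal bins of the tested genes by length in the deposited table (horizontal axis, bp), 1 line for each of the 6 WT libraries at 72 h. HCM replicate 3 falls from 0.792 in the shortest bin to -0.47 in the longest, while the other 5 libraries stay between -0.0879 and 0.227.

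Calcium changed the level of 3232 of 15114 tested genes at 72 h, at an adjusted p below 0.05 by the quasi-likelihood test of edgeR after Benjamini-Hochberg adjustment. Of these 3232, 1602 were higher in HCM, 10.6% of the genes tested, and 1630 were lower, 10.8%. Among all tested genes, the 3 HCM and 3 LCM libraries did not overlap in 39%. Without TMM factors the split moved to 986 higher and 2859 lower, and the median of all genes moved to -0.285 from 0.00658. The increases were the larger changes: 514 genes rose and 66 fell by more than 4-fold, and 117 rose and 14 fell by more than 16-fold. Without HCM replicate 3, 1222 genes were called higher and 1227 lower, of which 1165 and 1092 were among those above, and no gene was called in the opposite direction.

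The largest increases were taken among called protein-coding genes at 5 CPM or more in HCM whose HCM and LCM libraries did not overlap. Spink12, a Kazal-type serine protease inhibitor, was at 26, 21.6 and 37.9 CPM in HCM and at 0.0502, 0.317 and 0.0909 CPM in LCM, a log2 difference of 7.41 (SE 0.75, edgeR adjusted p = 3.46e-08). Serpinb7, an inhibitor of the serpin family whose human orthologue is mutated in Nagashima-type palmoplantar keratosis, was at 9.92, 13.6 and 9.84 CPM in HCM. In LCM it had reads in 1 library, at 0.277 CPM. Arg1, the urea-cycle enzyme arginase 1, rose from 0.227 to 0.401 CPM in LCM to 21.8 to 27.4 CPM in HCM, by 6.38. That the HCM and LCM libraries of these genes did not overlap followed from this choice and is no separate result.

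Psca, which encodes a small GPI-anchored surface protein, was at 1665, 1606 and 3966 CPM in HCM against 48.7 to 60.8 CPM in LCM. Its difference was 5.51 with HCM replicate 3 and 4.95 without it. Defb14, a beta-defensin, was at 244, 174 and 1465 CPM in HCM and at 9.5 to 14.6 CPM in LCM, so that replicate 3 alone moved its difference from 4.16 (edgeR adjusted p = 0.0191 without that library) to 5.74. Kcnip3, a calcium-binding protein that acts on potassium channels and as a transcriptional repressor, rose by 6.38. The others of the 15 largest were Lce1k, Pllp, Lce1j, Klk6, 2210017I01Rik, Defb4, Lce1i, Slpi and Sprr2d, with differences of 6.29, 6.20, 5.92, 5.88, 5.72, 5.34, 5.32, 5.20 and 4.97. Each was called without HCM replicate 3 as well.

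The largest decreases, chosen by the same rule with 5 CPM or more in LCM, were smaller than the largest increases. Atoh8, a bHLH transcription factor, fell from 6.47, 8.6 and 6.91 CPM in LCM to 0.177, 0.763 and 0.615 CPM in HCM, a log2 difference of -3.82 (SE 0.66, edgeR adjusted p = 9.99e-05). Id3, an inhibitor of bHLH factors and a target of BMP signalling, was at 71.3, 68 and 68.4 CPM in LCM and at 10.7, 12.4 and 12.2 CPM in HCM. Its difference of -2.56 had the smallest error of the set, 0.16. The means were 5.88-fold apart, with little spread inside either group.

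Rassf2, Mtus1 and Mylip, a RAS-association protein, a microtubule-associated candidate tumour suppressor and a ubiquitin ligase, fell by 2.98, 2.74 and 2.68. Sesn1, a stress-inducible inhibitor of mTORC1, fell from 60.7 to 81.4 CPM to 9.43 to 19.3 CPM, and Cyp26b1, which degrades retinoic acid, from 57.8 to 75.9 CPM to 12.6 to 13.7 CPM. Slc23a2, the ascorbate transporter, fell by 2.29, Dlx2, a homeobox factor, by 2.24, and Slit3, a guidance ligand, by 2.25. The remaining genes of the 15 were Gnpda1, Arhgef19, Fam83c, Ccdc88c and Dact2, at -2.48, -2.39, -2.32, -2.29 and -2.11. All 15 were called without HCM replicate 3.

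**Figure D2:**
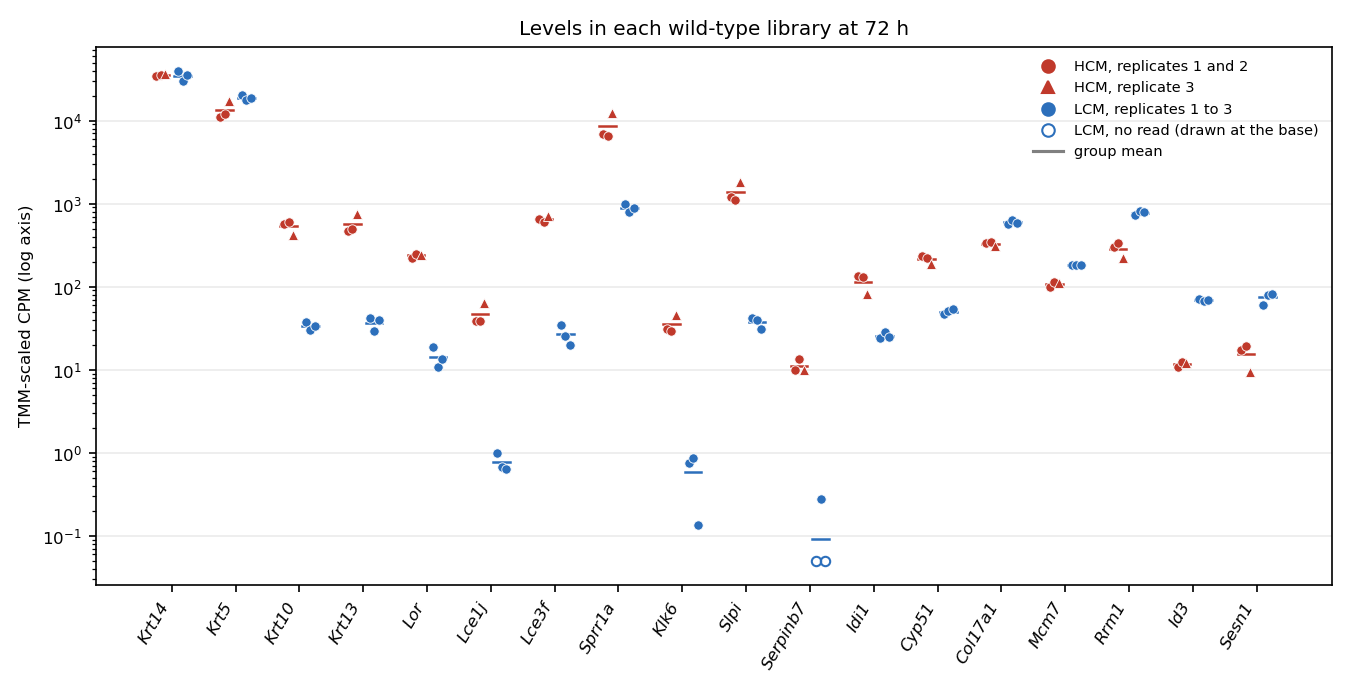
TMM-scaled CPM on a log axis (vertical) of 18 genes (horizontal) in each of the 3 HCM and 3 LCM libraries of WT cells at 72 h, with HCM replicate 3 as a triangle and lines for the group means. Krt14 overlaps between the media, Krt10, Lor, Lce1j and Klk6 sit far higher in HCM in all 3 libraries, Id3 and Sesn1 lie lower in HCM, and 2 LCM libraries of Serpinb7 had no read and are drawn at the base.

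Genes of the cornified envelope carried the clearest response. Of 51 tested members of the list 48 were higher and none was lower in HCM, with a median log2 difference of 3.96, against 0.00658 for all tested genes. The list took 2.45, 2.36 and 2.72% of all counts in the HCM libraries and 0.542, 0.516 and 0.508% in the LCM libraries. Without HCM replicate 3, 44 members were called. In bulk RNA, more cells of a differentiated kind and more RNA in each such cell cannot be told apart.

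Lor, loricrin, the main envelope protein of mouse epidermis, was at 223, 249 and 243 CPM in HCM and at 18.6, 10.8 and 13.6 CPM in LCM, a difference of 4.06 (SE 0.39, edgeR adjusted p = 7.83e-09). Ivl, involucrin, an early scaffold of the envelope, rose less, from 26 to 30.1 CPM to 124 to 154 CPM, by 2.38. Rptn, repetin, rose from at most 0.351 CPM to between 4.72 and 7.16 CPM. Flg, the filaggrin precursor of keratohyalin granules, remained near the limit of detection, at 0.472, 0.94 and 0.205 CPM in HCM and 0.0502, 0.0396 and 0 CPM in LCM. Hrnr, hornerin, was equally scarce, at 0.308 to 0.413 CPM in HCM. It was called (edgeR adjusted p = 0.0351) but not without any 1 of the 3 HCM libraries or without LCM replicate 1 or 3 (0.0554 without HCM replicate 3).

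Late envelope genes rose as families. All 14 tested Lce1 genes were higher in HCM, by 3.91 to 6.29 with a median of 4.6, and so were all 6 Lce3 genes, with a median of 4.44. Crct1, a cysteine-rich gene of the same cluster, was at 3281, 3108 and 2632 CPM in HCM and 162, 100 and 107 CPM in LCM. Lce3f was at 651, 594 and 710 CPM in HCM against 34.7, 25.4 and 19.9 CPM in LCM. Lce1f was at 113, 121 and 108 CPM against 7.97, 8.4 and 6.41 CPM. In Crct1 and Lce1f HCM replicate 3 was the lowest HCM library, and in none of the 3 genes did the media overlap. The Lce1 genes resemble one another closely, so counting could have split or dropped reads between them.

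Small proline-rich proteins are cross-bridging precursors of the envelope. Per kilobase of gene, Sprr1a was at 10654 CPM in HCM against 1103 in LCM, and Krt14 was at 20085 CPM in HCM and 19745 in LCM on the same scale. Its libraries held 6956, 6500 and 12304 CPM in HCM and 985, 795 and 886 CPM in LCM, a difference of 3.27, or 2.92 without HCM replicate 3. Of 12 tested Sprr2 genes 11 were called, with differences from 1.0 for Sprr2a2 to 4.97 for Sprr2d. Sprr2b was not, at 5.26, 4.29 and 12 CPM in HCM and 5.11 to 6.87 CPM in LCM. Sprr2d was at 1545, 1361 and 2781 CPM in HCM and 50.9 to 76.9 CPM in LCM. Sprr2a1, with a difference of 1.30, was not called without HCM replicate 3 (0.97), and reads of the closely related Sprr2 genes could have been split among them as well.

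Across the epidermal differentiation complex as annotated here, chr3:90418340-93435293 of GRCm39, from S100a1 to S100a11, 64 of 73 protein-coding genes were tested. Of these 56, or 87.5%, were higher in HCM and none was lower, with a median difference of 3.48. Of the 50 largest increases among protein-coding genes at 5 CPM or more, 25 came from this span of 3.02 Mb. Without HCM replicate 3, 48 were called higher, and with an offset for gene length 55 were. The 8 not called were S100a4, S100a6, S100a11, Sprr2b, Adrm1b, Smcp, Crnn and Tchh, the last of them trichohyalin, a protein of the hair follicle inner root sheath.

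**Figure D3:**
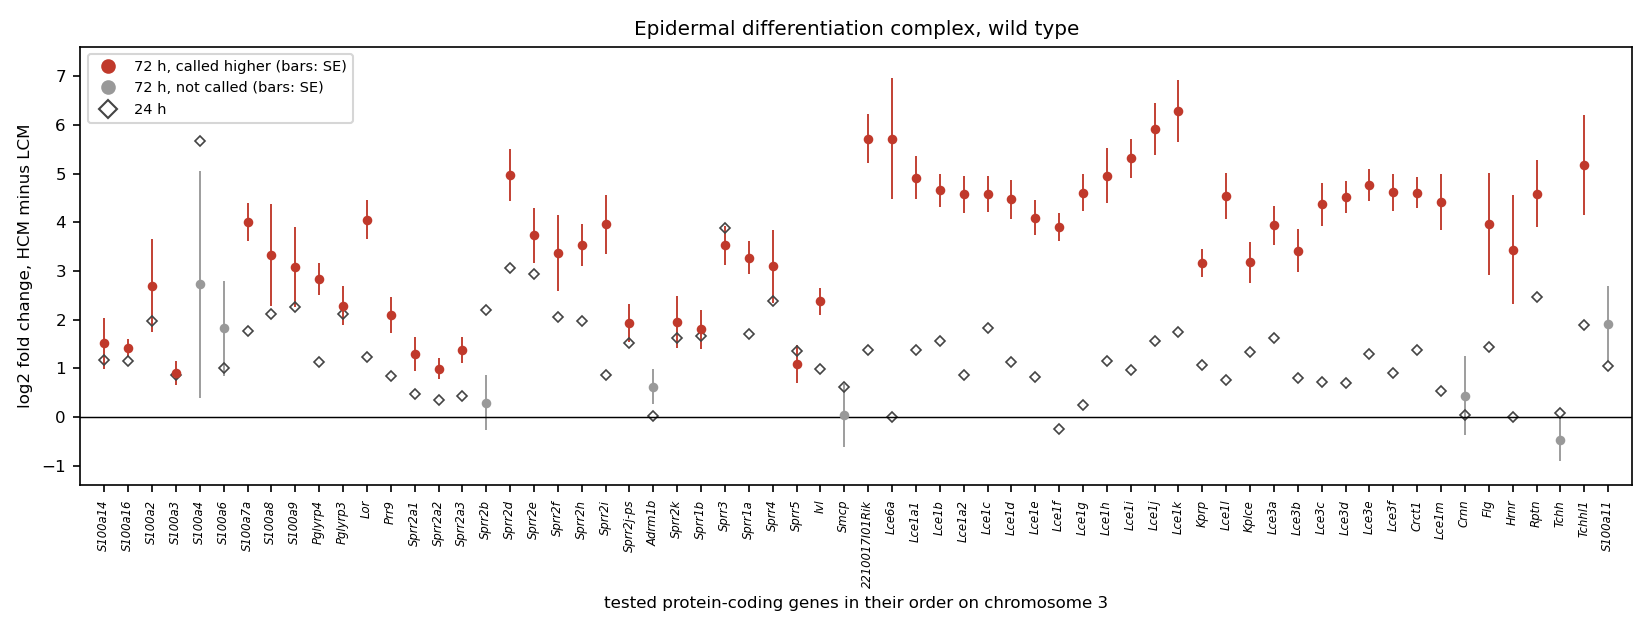
Log2 HCM minus LCM (vertical axis) of the 64 tested protein-coding genes of the epidermal differentiation complex in their order along chromosome 3 (horizontal axis), at 72 h with SE bars and at 24 h as open diamonds. At 72 h 56 genes are called higher, and the Lce genes form a plateau near 4 to 6 whose 24 h values lie below 2.

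Because these genes moved together, their promoters were searched for 3 short motifs in the 250 bases before the transcription start: TGAGTCA, the consensus to which AP-1 dimers bind, TATAAA, the core TATA box, and CCAAT, to which NF-Y binds, each on both strands, and none of the 3 holding another. RefSeq windows of build GRCm38.p6 were at hand for 10587 of the 15114 tested genes. The following show the 200 bases before the start, 5′ to 3′ on the gene's strand, of 2 small proline-rich genes and loricrin, which hold the first 2 motifs, and of Lce1k, the Lce gene that rose most, which holds neither. Capitals mark TGAGTCA and TATAAA in these 4 windows, where CCAAT is left in lower case; in Sprr2d its reverse complement overlaps the last base of TATAAA. Sprr1a is at chr3:92485882-92486081, minus strand, Sprr2d at chr3:92338940-92339139, plus strand, Lor at chr3:92083143-92083342, minus strand and Lce1k at chr3:92807892-92808091, minus strand.
Sprr1a: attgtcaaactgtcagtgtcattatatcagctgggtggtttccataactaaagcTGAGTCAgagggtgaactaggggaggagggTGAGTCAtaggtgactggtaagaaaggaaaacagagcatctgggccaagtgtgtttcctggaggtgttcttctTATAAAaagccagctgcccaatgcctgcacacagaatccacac
Sprr2d: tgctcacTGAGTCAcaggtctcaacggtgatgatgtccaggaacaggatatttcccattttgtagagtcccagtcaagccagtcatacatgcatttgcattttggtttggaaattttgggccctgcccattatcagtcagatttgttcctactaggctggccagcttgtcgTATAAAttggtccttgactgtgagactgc
Lor: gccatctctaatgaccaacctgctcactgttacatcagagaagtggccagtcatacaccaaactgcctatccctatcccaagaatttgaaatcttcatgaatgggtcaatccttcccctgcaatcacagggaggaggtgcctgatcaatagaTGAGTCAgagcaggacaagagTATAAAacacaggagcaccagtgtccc
Lce1k: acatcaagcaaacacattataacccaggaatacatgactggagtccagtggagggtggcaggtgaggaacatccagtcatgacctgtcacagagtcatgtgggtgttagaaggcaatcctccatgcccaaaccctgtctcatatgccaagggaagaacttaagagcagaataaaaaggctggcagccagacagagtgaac

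TGAGTCA was found in 11 of 44 cornified envelope genes with a window, or 25%, in 8.4% of the genes called higher, in 3.47% of those called lower and in 4.4% of all tested genes. It was found in 7 of 10 Sprr2 genes, which are closely related and so not separate cases. None of 19 Lce1 and Lce3 genes held it, nor did any of 18 epidermal proteases and inhibitors, most of which also rose. Of the other lists searched, 3 of 9 suprabasal and spinous genes and 2 of 22 cholesterol and fatty acid genes held TGAGTCA. No cell cycle gene did, of 37 with a window. In the 7 Sprr2 genes it began 193 to 198 bases before the start and TATAAA began 29 bases before it. Both were absent from the windows of Sprr2a1, Sprr2a2 and Sprr2a3, whose differences were 1.30, 1.0 and 1.38, and both were present in Sprr2b, whose difference was 0.29. In Sprr1a the motif began 146 and again 116 bases before the start, and in Lor 48 bases before it. TATAAA was found in 43.2% of the cornified envelope genes and in 8.57% of all tested genes. A match describes these letters alone and not binding.

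Keratins followed the shift from basal to suprabasal cells in part. Of 14 tested suprabasal keratins and spinous genes 11 were higher and none lower, with a median of 2.35, and 10 were called without HCM replicate 3. Krt10, the spinous type I keratin, was at 573, 604 and 424 CPM in HCM and 38, 29.8 and 33.3 CPM in LCM, a difference of 3.98 (SE 0.42, edgeR adjusted p = 4.19e-08). Krt1, its type II partner, rose by 2.48 but stayed at 36.1 to 43.3 CPM. Krt13 and Krt4, the pair of stratified mucosal epithelia, rose by 3.95 and 4.73, Krt13 to 471, 488 and 748 CPM. In all 4 the HCM and LCM libraries did not overlap. Mt4, an epithelial metallothionein, was at 31, 20.8 and 147 CPM in HCM and 4.64 to 6.77 CPM in LCM and was called with a difference of 3.59, but not without replicate 3 (2.24). Krtdap, a secreted spinous peptide, was not called, at 2084, 1656 and 6987 CPM in HCM and 954 to 1244 CPM in LCM.

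Of the basal keratins, Krt14 differed little between the media. Krt14 was at 34134, 34958 and 36836 CPM in HCM and 39040, 30059 and 35034 CPM in LCM, a difference of 0.02 (SE 0.15). Krt5 was at 11030, 12057 and 17273 CPM in HCM and 20272, 17665 and 18883 CPM in LCM, a difference of -0.49 that was just past the threshold (edgeR adjusted p = 0.0495) and was lost without HCM replicate 1 or 2 or without any 1 of the LCM libraries. It was -0.71 without HCM replicate 3. Of the keratins of activated epidermis, Krt6b and Krt16 rose by 1.5 and 0.96, while Krt6a and Krt17 had differences of 0.19 and -0.27 and were not called. Krt15, a basal keratin linked to quiescent cells, rose by 1.04. Of 5 tested simple-epithelium keratins 4 were called higher, Krt7, Krt8, Krt19 and Krt20, by 1.02, 2.53, 2.75 and 3.29, all at low levels. The remaining member had a difference of -1.66 and was not called. With only the libraries of the compared groups in the fit, 2 of the list were called higher. Krt19 was at 5.46 to 10.2 CPM in HCM and 0.713 to 1.45 CPM in LCM, and Krt8 at 0.886 to 1.76 CPM in HCM and 0 to 0.475 CPM in LCM.

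Proteases of desquamation and their inhibitors rose together. Of 23 tested genes 20 were higher and 1 was lower, with a median difference of 2.88, and the counts were the same without HCM replicate 3. All 10 kallikreins tested were higher, by 1.38 to 5.88. Klk6 was at 31.2, 28.9 and 46.1 CPM in HCM and 0.752, 0.871 and 0.136 CPM in LCM. Klk7, which cleaves corneodesmosomes, was at 338, 318 and 486 CPM against 43.7, 25.9 and 32.2 CPM, and Klk5, which activates it, rose by 3.39. Klk10 was at 2137, 2114 and 2923 CPM in HCM and 504 to 605 CPM in LCM. The HCM and LCM libraries of none of the 10 overlapped.

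Among the inhibitors, Slpi, secretory leukocyte peptidase inhibitor, rose from 42.2, 39.6 and 30.7 CPM to 1204, 1095 and 1836 CPM, a difference of 5.20 (SE 0.38, edgeR adjusted p = 3.76e-11). Cst6, the inhibitor of cathepsins and legumain in the stratum corneum, rose by 3.64 and Serpinb12 by 4.22. The serine proteases Prss8 and Prss27 rose by 3.01 and 3.61. Spink5, which encodes the kallikrein inhibitor LEKTI, was at 350 and 380 CPM in HCM replicates 1 and 2 but at 139 CPM in replicate 3, against 140 to 183 CPM in LCM. It was not called (0.88) unless replicate 3 was left out (1.21). The gene that fell was Serpinb5, maspin, at 276, 259 and 241 CPM in HCM and 396 to 477 CPM in LCM, a difference of -0.73.

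Enzymes of the lipid barrier and of cross-linking rose moderately, with 18 of 26 higher and 1 lower and a median of 1.14, and 17 and 1 without HCM replicate 3. Cyp4f39, Pnpla1, Alox12b, Aloxe3 and Sdr9c7, which act in the making and oxidation of the acylceramides that are bound to the envelope, rose by 1.54, 1.66, 1.70, 1.80 and 1.6. Aloxe3 was at 77.8, 75 and 131 CPM in HCM and 25.9 to 29.6 CPM in LCM. Elovl4, which lengthens the fatty acids, rose by 0.94 and Asprv1, the protease that processes filaggrin, by 2.70. Abca12, the lipid transporter of lamellar granules, rose by 0.89 but was not called without HCM replicate 1 or 2 or LCM replicate 1 or 3 (1.04 without HCM replicate 3). Cers3, the ceramide synthase of very long chains, was not called, at 88.3, 90 and 59.9 CPM in HCM and 53.4 to 65.2 CPM in LCM.

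The transglutaminases diverged. Tgm1, the main cross-linker of the envelope, was at 69.6, 85.4 and 126 CPM in HCM and 79.8, 67.9 and 75.4 CPM in LCM, so that the groups overlapped (0.33, edgeR adjusted p = 0.252). Tgm5 rose by 1.24. Tgm3, which cross-links loricrin and small proline-rich proteins, fell from 235, 202 and 238 CPM to 50, 55.8 and 63.6 CPM, a difference of -2.0 (SE 0.19, edgeR adjusted p = 8.51e-09). It was the gene of the list that fell.

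Of 33 tested genes for cholesterol and fatty acid synthesis 24 were higher in HCM and none lower, with a median of 1.33, and the same counts held without HCM replicate 3. From the first steps to the last, Hmgcs1, Mvk, Pmvk, Mvd, Idi1, Fdps, Fdft1, Sqle, Lss, Cyp51, Msmo1, Nsdhl, Hsd17b7, Ebp, Sc5d and Dhcr7 were all called higher. Idi1, isopentenyl diphosphate isomerase, was at 133, 132 and 81 CPM in HCM and 24.1, 28.3 and 24.7 CPM in LCM, a difference of 2.17 (SE 0.29, edgeR adjusted p = 1.56e-06). Cyp51, lanosterol demethylase, was at 236, 221 and 189 CPM against 46.4, 50.6 and 53.2 CPM, and Msmo1 at 192, 181 and 158 CPM against 37.7 to 48.8 CPM. HCM replicate 3 was the lowest HCM library for these 3 genes and was still above all LCM libraries.

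Srebf2, the transcription factor that drives the pathway, rose by 0.47. Hmgcs1 rose by 0.90 but was not called without HCM replicate 1 or 2 or LCM replicate 1 or 3 (1.12 without HCM replicate 3). Insig1 and Stard4, further targets of that factor, rose by 1.95 and 1.63. Of the fatty acid branch Elovl6 rose by 2.15, whereas Fasn (-0.07), Acaca (0.31), Acly (-0.05), Scd1 (0.94), Scd2 (0.40), Fads1 (0.28), Fads2 (0.67) and Srebf1 (-0.56) were among those not called. CCAAT, shown here in capitals in the promoter of Cyp51 and, for the replication genes described further on, Mcm5, was found in 18 of 22 genes of the list with a window, or 81.8%, and in 41.1% of all tested genes. The windows are at chr5:4104698-4104897, minus strand, and chr8:75109309-75109508, plus strand.
Cyp51: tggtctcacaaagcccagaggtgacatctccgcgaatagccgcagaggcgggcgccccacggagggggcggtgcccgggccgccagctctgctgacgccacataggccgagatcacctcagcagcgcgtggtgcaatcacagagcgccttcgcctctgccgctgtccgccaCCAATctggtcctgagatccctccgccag
Mcm5: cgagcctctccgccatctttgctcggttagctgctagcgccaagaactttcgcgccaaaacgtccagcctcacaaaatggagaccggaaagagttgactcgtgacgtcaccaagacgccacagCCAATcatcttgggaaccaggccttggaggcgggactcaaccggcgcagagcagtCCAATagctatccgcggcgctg

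**Figure D4:**
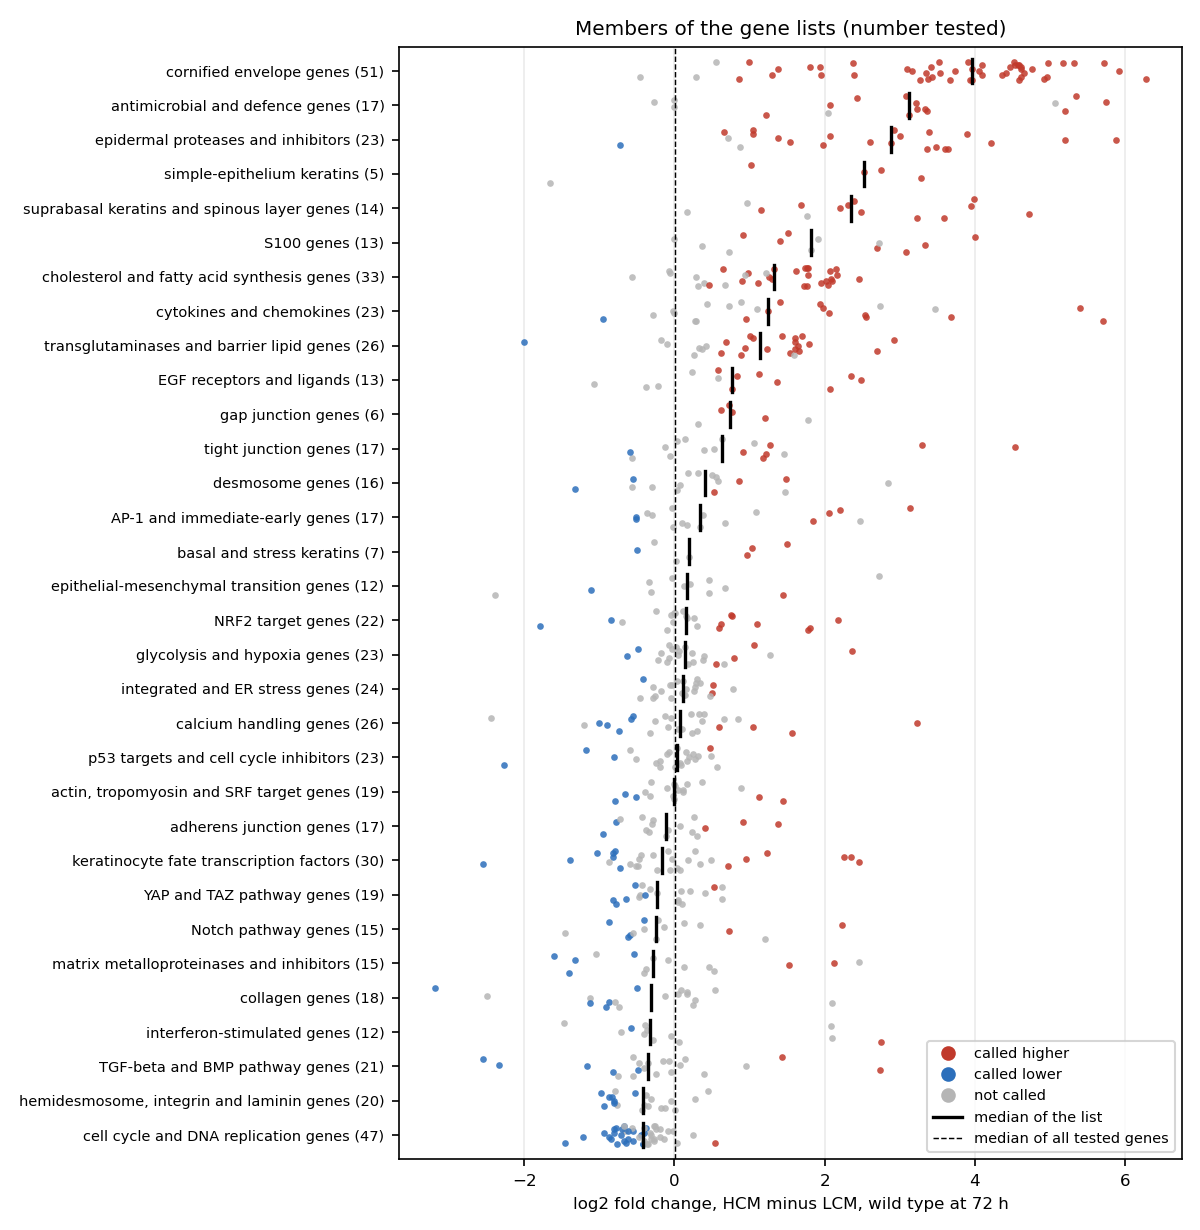
Log2 HCM minus LCM (horizontal axis) of every tested member of gene lists (rows, number tested in parentheses) in WT cells at 72 h, with called genes coloured, a bar at each list's median and a dashed line at the median of all tested genes, 0.00658. Lists of cell type markers are left out. The cornified envelope list lies at 3.96, the highest median plotted, and the hemidesmosome and cell cycle lists lie at -0.42.

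Part of the genes that hold basal cells to the basement membrane were lower. None of 20 tested hemidesmosome, integrin and laminin genes was higher and 7 were lower, with a median of -0.42. Col17a1, the hemidesmosomal collagen, was at 334, 343 and 306 CPM in HCM and 572, 638 and 585 CPM in LCM, a difference of -0.87 (SE 0.13, edgeR adjusted p = 1.03e-05). Lama3 and Lamb3, chains of laminin-332, fell by 0.83 and 0.94. Itga6, with -0.97, was lost without HCM replicate 3 (-0.68) or LCM replicate 2. Lamc1, with -0.52, was lost without HCM replicate 1 or 3 or LCM replicate 1 or 2 (-0.38 without HCM replicate 3). Itgb5 fell by 0.81, while Itgb4 (-0.38), Itgb1 (-0.18) and Itga3 (0.28) were not called. Without HCM replicate 3, 4 genes of the list were lower and 1 higher. The tested members were long, with a median length of 7122 bp. With an offset for gene length 7 were lower and 2 higher, and the median was -0.25.

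Of 18 tested collagens none was higher and 5 were lower, or 4 without HCM replicate 3. With an offset for gene length 4 were lower and none higher, and the median moved from -0.31 to -0.15. Col7a1, the anchoring fibril collagen, fell from 43.6 to 50.2 CPM to 19.7 to 24.4 CPM, by 1.13, and Col6a1 from 2.1 to 2.46 CPM to 0.103 to 0.295 CPM. Col18a1 had a difference of -0.50, and Col12a1, with -0.90, was not called without HCM replicate 1 or 3 or LCM replicate 1 or 2 (-0.75 without HCM replicate 3).

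Few desmosome genes were called. Of 16 desmosome genes 3 were higher and 2 lower, or 4 and 1 without HCM replicate 3. Over all tested genes 10.6% were higher and 10.8% lower, so these counts are not read as a response of the list. Dsc2, desmocollin 2, rose by 1.48, and Ppl, periplakin, by 0.86, although the latter was not called without HCM replicate 1 or 2 or LCM replicate 3 (1.03 without HCM replicate 3). Pkp1, plakophilin 1, fell from 2096, 2283 and 2042 CPM to 1369, 1463 and 1558 CPM, by 0.55. Dsg2 fell by 1.32, but was not called without HCM replicate 3 (-1.10) or LCM replicate 2. Dsp, Jup, Dsg3 and Dsg1a had differences of 0.03, 0.07, 0.50 and 0.31 and were not called, and in Dsp HCM replicate 3 lay at 1082 CPM where the other 5 libraries lay at 1695 to 2370 CPM. Cdh1, E-cadherin, was not called either, at 99, 110 and 69.4 CPM in HCM and 68.2 to 86.2 CPM in LCM.

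Tight junction genes were higher more often than lower, 6 against 1 of 17, and 7 against 1 without HCM replicate 3. Cldn23 was at 27.8, 24.7 and 26.4 CPM in HCM and 1.15, 1.11 and 1.14 CPM in LCM, a difference of 4.53 (SE 0.34, edgeR adjusted p = 6.52e-11), with very little spread within either medium. Cldn1 and Cldn4, sealing claudins of the granular layer, rose by 0.92 and 1.21. Tjp1 and Ocln had differences of 0.14 and 0.39 and were not called. Of 6 connexins 4 were higher and none was lower, but 2 were called without HCM replicate 3. Gjb2 and Gjb5 had differences of 0.62 and 0.76 and were not called without that library (0.46 and 0.57) or without LCM replicate 2, nor Gjb2 without LCM replicate 1.

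Defence genes were higher, with a strong share of the signal in HCM replicate 3. Of 17 tested antimicrobial genes 12 were higher and none lower, median 3.13, but 7 were called without that library. Those 7 included Slpi, Defb4, Defb14 and Il36a. Il36g, a keratinocyte alarmin, was at 122, 120 and 143 CPM in HCM and 31.1, 27.2 and 33.3 CPM in LCM, a difference of 2.07, and Defb1 rose by 1.23. S100a8 and S100a9, the subunits of calprotectin, were at 65, 47.4 and 276 CPM and at 144, 111 and 482 CPM in HCM, and at 10.6 to 15.8 and 20.9 to 43 CPM in LCM. Their differences of 3.33 and 3.08 were 2.13 and 2.14 and not called without replicate 3, and S100a8 was also lost without any 1 of the LCM libraries. Defb3 went the same way, from 3.24 to 2.26. Of 13 S100 genes 7 were higher, but 3 without replicate 3. S100a7a, psoriasin, was among those, at 55.3, 58.3 and 95.8 CPM in HCM and 2.73 to 6.57 CPM in LCM.

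Of 23 cytokine genes 11 were higher and 1 lower, and 10 and 1 without HCM replicate 3. Ccl2 was at 1.48, 2.06 and 2.26 CPM in HCM and at 0.0502, 0 and 0.0455 CPM in LCM, and Ccl20, which attracts CCR6-bearing lymphocytes and dendritic cells, at 2.48, 1.7 and 2.36 CPM and 0.0396 to 0.0502 CPM (edgeR adjusted p = 4.21e-07 and 1.28e-06). Csf3 and Cxcl1, both neutrophil factors, rose by 2.55 and 1.94, and Cxcl1 reached 24.1 to 35.7 CPM. Il1a and Il18 rose by 1.40 and 1.97. Il33, a nuclear alarmin, was the gene that fell, from 43.4, 54 and 64.5 CPM to 27.9, 31.5 and 24.2 CPM, by 0.95. Ccl27a, a skin-homing chemokine, was at 17.8 CPM in HCM replicate 3 against 4.43 and 3.64 CPM in the others, and its difference of 2.54 was not called without it (1.47) nor without LCM replicate 2 or 3. Of 12 interferon-stimulated genes 1 was higher and 1 lower, and none without HCM replicate 3.

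Ligands of the EGF receptor rose. Of 13 genes for EGF receptors, ligands and regulators 8 were higher and none lower, and 8 without HCM replicate 3. Ereg, epiregulin, was at 6.97, 9.04 and 4.31 CPM in HCM and 0.953 to 1.5 CPM in LCM, Areg, amphiregulin, at 7.09, 5.28 and 4.51 CPM against 1.14 to 1.47 CPM, and Hbegf at 15.7 to 19 CPM against 7.37 to 8.32 CPM, differences of 2.48, 2.08 and 1.12. Tgfa was at 106 to 129 CPM against 63.6 to 68.4 CPM. Lrig1, which restrains the receptor, rose by 1.36. Egfr itself had overlapping libraries, with a difference of 0.58 that was lost without HCM replicate 1 or 2 or LCM replicate 1 or 3 (0.73 without HCM replicate 3).

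Early-response and AP-1 genes changed singly, with 4 of 17 higher and 2 lower, with and without HCM replicate 3. Fosl1, the AP-1 subunit Fra-1, rose from 5.27, 6.69 and 7.18 CPM to 23.3, 22.5 and 43.3 CPM, by 2.21. Egr1 and Egr3 rose by 2.06 and 3.14, and Maff by 1.85. Fosl2 (-0.51) was lower but not called without LCM replicate 2 (-0.39), and Jun (-0.52) was lower but lost its call without any 1 of the libraries other than HCM replicate 3 (-0.62 without the latter). Fos (0.38) and Junb (0.33) were not called.

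Of 30 transcription factors of keratinocyte fate 6 were higher and 7 lower, or 5 and 4 without HCM replicate 3. Hopx, a homeodomain protein of upper layers, was at 323, 316 and 329 CPM in HCM and 59.5, 51.9 and 65.3 CPM in LCM, a difference of 2.45 (SE 0.16, edgeR adjusted p = 4.73e-12). Prdm1, or Blimp1, which acts in terminal differentiation, rose by 2.26, Barx2 by 2.35 and Ehf by 0.95. Trp63, the p63 gene of basal cells, was at 80.7, 84.3 and 38.4 CPM in HCM and 128 to 155 CPM in LCM. Its difference of -1.04 was -0.76 and not called without HCM replicate 3, as was Id2 (-0.82, then -0.62) and Grhl2 (-0.73, then -0.50), the latter also lost without LCM replicate 2. Klf4, Ovol1, Zfp750 and Grhl3 had differences of -0.47, 0.03, 0.18 and -0.28 and were not called.

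In the TGF-beta and BMP list 2 of 21 genes were higher and 5 lower, or 2 and 3 without HCM replicate 3. The shares over all tested genes were 10.6% higher and 10.8% lower. Beside Id3, Smad6, an inhibitory Smad, fell by 2.34, and Tgfbi, an extracellular matrix protein induced by TGF-beta, fell from 148 to 171 CPM to 64.5 to 81.3 CPM, by 1.16. Id1 was not called, at 73.2 to 105 CPM in HCM and 77.6 to 85.5 CPM in LCM. Fst, follistatin, which binds activin, rose by 1.43, and Bmp7 by 2.74 at no more than 1.85 CPM. In the Notch list 2 of 15 were higher and 4 lower, or 2 and 2 without HCM replicate 3. Nrarp, a feedback target of the pathway, was at 219, 226 and 184 CPM in HCM and 43.6, 43.6 and 47.3 CPM in LCM, a difference of 2.23, whereas Hes1 (0.35) and Hey1, at no more than 0.502 CPM, were not called. Notch1 was called at -0.62 but lost without HCM replicate 2 or 3 or LCM replicate 2 or 3 (-0.47 without HCM replicate 3).

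Replication genes were lower, by small amounts. Of 47 tested cell cycle genes 23 were lower and 1 higher, with a median of -0.42, and 21 and 1 without HCM replicate 3. The helicase genes Mcm2 to Mcm7 all fell, by 0.64 to 0.87. Mcm7 was at 99.3, 113 and 112 CPM in HCM and 184, 182 and 184 CPM in LCM, a difference of -0.77 (SE 0.11, edgeR adjusted p = 5.05e-06). Rrm1, a ribonucleotide reductase subunit, fell most, from 722, 824 and 797 CPM to 297, 338 and 221 CPM, by 1.45, and Cdc6, which loads the helicase, by 0.94. CCAAT was found in 30 of 37 promoter windows of the list, or 81.1%.

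Of the mitotic genes, Foxm1 and Ccnb2 fell by 0.62 and 0.45, while Ccnb1 (-0.57), Top2a (-0.47), Plk1 (-0.41), Cdk1 and Mki67 (-0.08) were not called, and in Mki67 HCM replicate 3 lay at 9.13 CPM against 35.7 and 32 CPM in the other HCM libraries. Pcna, with -0.41, was lost without HCM replicate 3 (-0.34) or LCM replicate 3. The gene that rose was Ccnd1, cyclin D1, at 195, 218 and 209 CPM in HCM and 137 to 151 CPM in LCM, by 0.54. Of 23 p53 targets and inhibitors 1 was higher and 3 lower, Cdkn1b, the p27 gene, falling from 36.9 to 44.4 CPM to 16.1 to 20 CPM, by 1.18. Cdkn1a, the p21 gene, was not called, at 289, 324 and 610 CPM in HCM and 353 to 416 CPM in LCM.

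Genes that handle calcium itself were called in both directions, 4 of 26 higher and 5 lower, or 4 and 4 without HCM replicate 3. Since 10.6% of all tested genes were higher and 10.8% lower, the counts are not read as a response of the list. Calml3, a calmodulin-like protein of differentiating epithelia, rose from 1.58 to 3.46 CPM to 15.8, 16.6 and 34.1 CPM, by 3.23, and Itpr2, an intracellular calcium release channel, by 1.57. Stim1, the sensor of endoplasmic reticulum calcium, was at 36.4, 38.9 and 39.5 CPM in HCM and 68.8, 74.4 and 71.1 CPM in LCM, a difference of -0.90 (SE 0.11), and Plcd1 and Plcg1, phospholipases that release inositol trisphosphate, fell by 1.0 and 0.74. Atp2a2, the SERCA2 pump, was not called (-0.33), nor was Orai1 (0.32).

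Of 22 NRF2 targets 8 were higher and 2 lower, or 5 and 1 without HCM replicate 3. Srxn1, sulfiredoxin, was at 274, 256 and 353 CPM in HCM and 63.9, 63.7 and 67.5 CPM in LCM, a difference of 2.18 (SE 0.13, edgeR adjusted p = 2.55e-12), and Hmox1, heme oxygenase 1, rose by 1.78. Gclc, the catalytic subunit of glutathione synthesis, fell from 711, 874 and 768 CPM to 259, 269 and 152 CPM, by 1.79. Of 24 stress-response genes of the endoplasmic reticulum and the integrated response 2 were higher and 1 lower, of 23 glycolysis and hypoxia genes 4 and 2, of 19 actin and SRF genes 2 and 3, of 19 YAP and TAZ genes 1 and 5, of 15 matrix protease genes 2 and 4, of 12 epithelial-mesenchymal transition genes 1 and 1 and of 17 adherens junction genes 3 and 2. Without HCM replicate 3 these counts were, in the same order, 1 and 0, 3 and 2, 2 and 4, 2 and 3, 2 and 4, 1 and 0, and 1 and 2, and for the p53 list 0 and 2. For all tested genes the shares were 10.6% higher and 10.8% lower. Rhov, an atypical small GTPase, rose by 2.62, Plaur, the urokinase receptor, by 1.52 and Acta2, smooth muscle actin, by 1.45. Gapdh and Actb, often used as references, were at 250 and 5597 CPM in HCM replicate 3 against 39.5 to 56.4 and 1561 to 1683 CPM in the other 5 libraries.

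Whether the response at 72 h was that of 24 h was tested as a difference of differences within WT cells. Larger and smaller responses, here and below, refer to log2 HCM minus LCM with its sign. A gene that fell further at 72 h, as Id3 did from -1.41 to -2.56, counts as smaller. In this sense the response was larger at 72 h in 337 genes, 2.23% of those tested, and smaller in 320, 2.12%. Without HCM replicate 3 of 72 h these counts were 301 and 310. The 337 included 25 of 51 cornified envelope genes, and none of these was in the other direction. Of 14 Lce1 genes 13 were among them, and 3 were called higher at 24 h, when 7.69% of all tested genes were higher and 6.48% lower. Lce1g was at 3.19 ± 1.23 CPM in LCM and 3.81 ± 1.19 CPM in HCM at 24 h (SD, n = 3), whereas at 72 h it was at 6.17, 5.23 and 4.41 CPM and at 124, 114 and 149 CPM. The differences between the times were 6.03 for Pllp (plasmolipin, a membrane proteolipid), 4.37 for Lce1g, 4.35 for Lce1j, 4.35 for 2210017I01Rik and 4.34 for Lce1i. Their edgeR adjusted p-values were 0.0109, 3.81e-06, 0.0133, 0.00169 and 4.28e-05. The call of Pllp was lost without replicate 1 of the 24 h LCM libraries (3.51) and that of Lce1j without replicate 2 of them (3.52).

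Of 23 cytokine genes 5 had a larger and 1 a smaller response at 72 h, and of 17 early-response and AP-1 genes 3 and 1. Ccl2 was at 0.305 ± 0.393 CPM in LCM and 0.0751 ± 0.0254 CPM in HCM at 24 h (SD, n = 3), and the difference between the times passed the test for Ccl2, Csf3 (2.69) and Cxcl1 (2.29), with edgeR adjusted p = 1.32e-05, 1.05e-04 and 1.31e-04. Egr1 and Fosl1 had log2 differences of 0.04 and 0.27 at 24 h and of 2.06 and 2.21 at 72 h (edgeR adjusted p of the differences 2.25e-04 and 0.00269). Lrig1, Car12 and Ccnd1 changed sign, from -0.99, -1.45 and -0.53 at 24 h to 1.36, 1.06 and 0.54 at 72 h, with edgeR adjusted p = 8.60e-06, 5.53e-07 and 8.28e-05 for the differences.

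In the opposite group, several regulators of differentiation were called higher at 24 h and were not called at 72 h. Of 30 fate transcription factors 9 had a lower log2 HCM minus LCM at 72 h than at 24 h and none a higher. Among the 9 was Id3, which fell at both times and further at 72 h. Zfp750 had a log2 difference of 1.99 at 24 h and 0.18 at 72 h, Ovol1 1.87 and 0.03, Grhl1 2.07 and 0.49, and Tgm1 2.43 and 0.33. For Tgm1 LCM was at 32.9 ± 3.13 CPM and HCM at 177 ± 8.86 CPM at 24 h (SD, n = 3), against 67.9 to 79.8 and 69.6 to 126 CPM at 72 h. Its level was thus lower in HCM and higher in LCM at 72 h than at 24 h, which was not tested. Il33 reversed, from 2.89 at 24 h to -0.95 at 72 h, and so did Plcd1, from 0.80 to -1.0, and Pkp1, from 0.46 to -0.55 (edgeR adjusted p of the differences 3.37e-08, 8.46e-08 and 1.80e-04). Of 16 desmosome genes 4 had a smaller response at 72 h, and 12 had been called higher at 24 h against 3 at 72 h.

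In PKP4-KO cells at 72 h log2 HCM minus LCM was higher than in WT cells for 280 genes, 1.85% of those tested. It was lower for 587, 3.88%. A gene that fell in WT cells but not in PKP4-KO cells, such as Id3, thus counts among the 280. Without WT HCM replicate 3 the split was 320 and 609. It was 88 and 1216 without TMM factors and 477 and 595 by DESeq2. Among the 587 were 22 of the 51 cornified envelope genes and 13 of the 14 Lce1 genes. The Lce1 median was 1.2 in PKP4-KO cells against 4.6 in WT cells. Lce1l was at 1.94 ± 0.741 CPM in LCM and 1.68 ± 0.278 CPM in HCM in PKP4-KO cells (SD, n = 3), against 0.682 to 1.78 and 23.4 to 36.4 CPM in WT cells, a difference of the responses of -4.74 (SE 0.66, edgeR adjusted p = 2.53e-05). Id3 had a difference of -0.08 in PKP4-KO cells, at 23.7 ± 2.45 CPM in LCM and 22.4 ± 2.47 CPM in HCM, both below the WT level in LCM. Il33 rose there by 2.26, as in WT cells at 24 h, and Tgm3 by 0.60 from a level of 483 ± 22.6 CPM in LCM. Cholesterol genes rose in both, with a PKP4-KO median of 1.04 and 3 of 33 genes with a smaller response.

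In Rescue cells the response differed from that in WT cells for 2203 genes. Taken with its sign, as above, it was larger in 1029, 6.81%, and smaller in 1174, 7.77%. Genes that fell in WT cells but not in Rescue cells count as larger, such as Slit3, at -2.25 in WT cells and 0.45 in Rescue cells. Without TMM factors the split was 1715 larger and 579 smaller, and without WT HCM replicate 3 it was 710 and 793. Leaving out Rescue LCM replicate 2 gave 1440 genes in all and leaving out Rescue LCM replicate 1 gave 3269. The Lce1 median was 4.46, against 4.6 in WT cells, with 2 of 14 genes smaller and 1 larger, but of all 51 cornified envelope genes 23 were smaller and 2 larger, and of 6 Lce3 genes 4 were smaller. All 10 kallikreins had a smaller response, with a median of 0.17 against 2.90, and so had 10 of 14 suprabasal genes, 16 of 26 transglutaminase and lipid genes, 7 of 12 Sprr2 genes and 16 of 23 cytokines. Krt13 was at 109 ± 13.5 CPM in LCM and 70.1 ± 8.78 CPM in HCM in Rescue cells (SD, n = 3), a difference of the responses of -4.58 (edgeR adjusted p = 1.74e-09). Areg was at 60.9 ± 15.6 CPM in LCM and 4.92 ± 1.19 CPM in HCM, where WT cells had 1.14 to 1.47 CPM in LCM and 4.51 to 7.09 CPM in HCM. Tgm1 and Ovol1 fell in Rescue cells, by 2.37 and 1.55, from LCM levels of 373 ± 47.3 and 168 ± 7.96 CPM. The comparisons with 24 h, PKP4-KO and Rescue cells share the 6 WT libraries at 72 h.

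**Figure D5:**
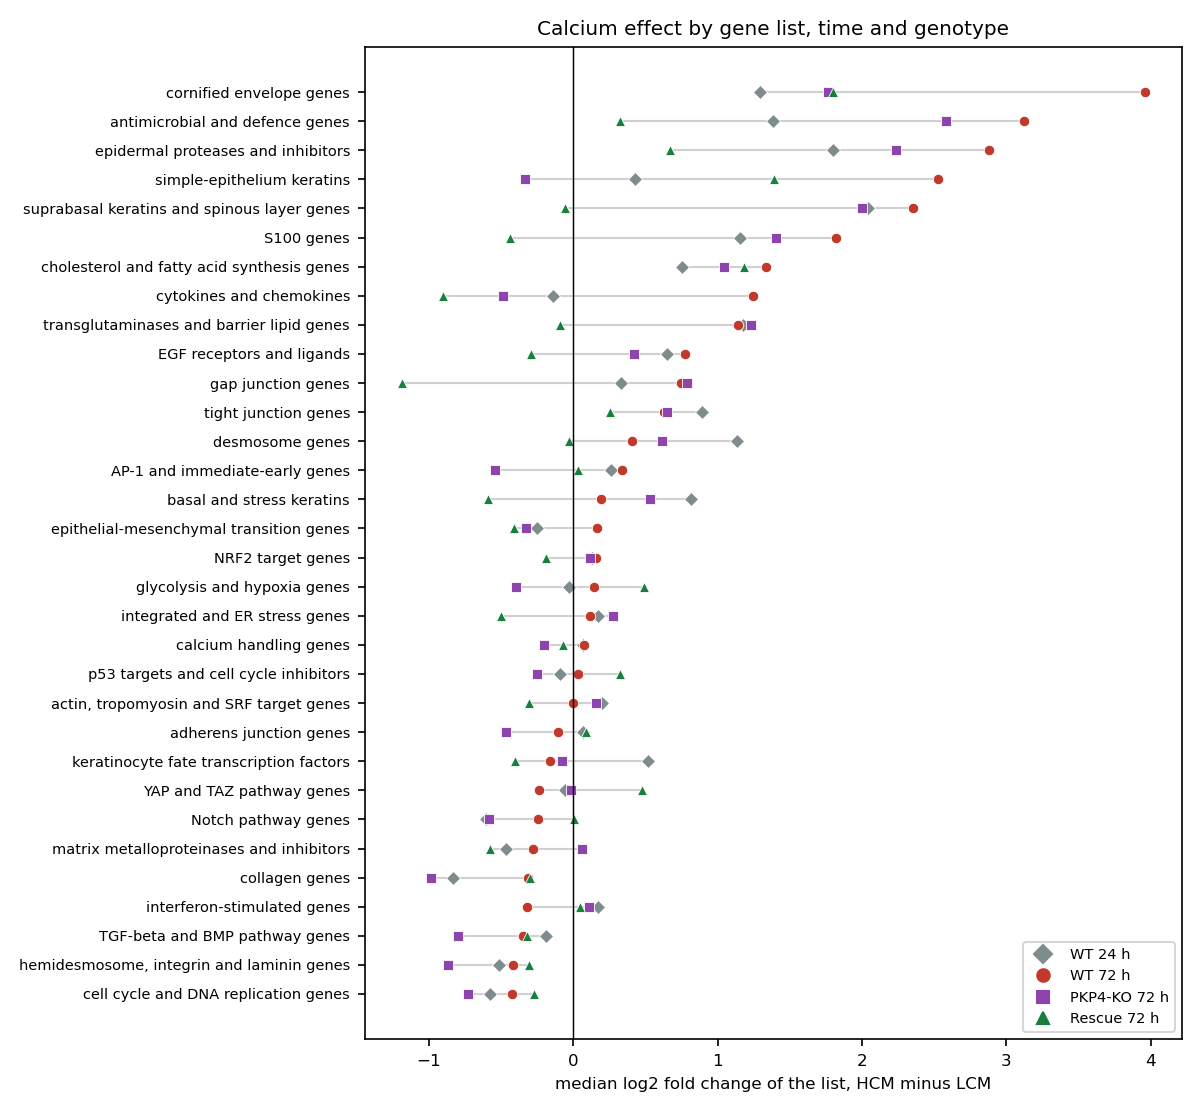
Median log2 HCM minus LCM (horizontal axis) of gene lists (rows) in WT cells at 24 h and 72 h and in PKP4-KO and Rescue cells at 72 h (symbols), each from 3 HCM and 3 LCM libraries, with grey lines spanning the 4 medians. The cornified envelope list is at 3.96 in WT cells at 72 h and between 1.30 and 1.80 in the others, and cholesterol synthesis lies between 0.751 and 1.33 in all of them.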

How the data were processed

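RNA of 36 libraries of mouse keratinocytes was sequenced after poly(A) selection (strand-specific, paired-end), and the authors deposited 1 table of raw counts per gene for 55358 genes. Reads were aligned by the authors with HISAT2 2.1.0 to mm39 with the EGFP-PKP4 sequence added, secondary alignments were removed with SAMtools 1.10, and counts were made with featureCounts 2.0.0 on the Ensembl annotation of GRCm39. The table's gene lengths are in bases, and no column of the authors' own comparisons was used.

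All 36 libraries entered 1 edgeR 4.0.16 model (R 4.3.3) (12 group means, which left 24 residual degrees of freedom), after filterByExpr (15114 genes) and TMM scaling. Groups were compared by the quasi-likelihood test with Benjamini-Hochberg adjustment over all tested genes, and a gene was called at an adjusted p below 0.05. Differences between 2 calcium effects were contrasts of the same model. The scripts were tested on simulated counts. Counting error alone limits genes with few reads, and no fold is given for genes with 3 or fewer LCM counts in all. Named are the 15 protein-coding genes with the largest change in each direction (at 5 CPM or more in the higher group, media not overlapping), up to 8 members of a gene list with the largest called change plus those needed to account for the list, the 5 protein-coding genes with the largest difference in each of the 3 contrasts between calcium effects, and Pkp4 with its transgene. Further members of the sterol, integrin and cell cycle lists were named after their values were seen. The genes and lists were chosen with earlier results of these data known. Alternatives were other scaling, filters and tests (DESeq2 1.42.0, edgeR's exact test), a replicate block, fits on fewer libraries, leaving out each library, and a loess offset for gene length, the last chosen after seeing the data. Some members are counted in their lists and not reported by name here.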

Additional observations from a re-analysis of the deposited data

Results flagged for a closer look

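The calcium effect differed between WT cells at 72 h and at 24 h in 657 genes, between PKP4-KO and WT cells at 72 h in 867 and between Rescue and WT cells at 72 h in 2203, by the test of the difference itself (edgeR, Benjamini-Hochberg adjusted p below 0.05). The 5 protein-coding genes with the largest difference in each are given here on the log2 scale, and each was also called without HCM replicate 3 of WT cells. Between the times they were Pllp (6.03), Lce1g (4.37), Lce1j (4.35), 2210017I01Rik (4.35) and Lce1i (4.34), all larger at 72 h.

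Between PKP4-KO and WT cells they were Cyp2b10 (4.90), Gm9732 (-4.87), Krt19 (-4.80), Rab6b (-4.78) and Lce1l (-4.74). Cyp2b10, a cytochrome P450 of the nuclear receptor CAR, was at 24.2 ± 6.27 CPM in HCM and 1.43 ± 0.525 CPM in LCM in PKP4-KO cells (SD, n = 3) and at 0.411 to 0.718 and 0.802 to 1.19 CPM in WT cells. Krt19 was at or below 0.182 CPM on average in both media in PKP4-KO cells and was not called without replicate 3 of their LCM libraries (-3.40).

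Between Rescue and WT cells they were Defb14 (-7.06), Kcnip3 (-6.79), Mt4 (-6.61), Nppb (-6.35) and Csf3 (-6.28). The values of Defb14 and Mt4 were -5.47 and -5.27 without HCM replicate 3 of WT cells. Csf3 was at 42.5 ± 7.34 CPM in LCM and 3.19 ± 1.11 CPM in HCM in Rescue cells (SD, n = 3), and at 0.455 to 0.702 and 3.08 to 4.07 CPM in WT cells. Kcnip3 was at 0.989 ± 0.555 CPM in LCM and 0.718 ± 0.233 CPM in HCM in Rescue cells, and at 8.04 to 22 CPM in HCM in WT cells.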

How the results depend on the processing

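No named call changed direction under any setting tried. Of 417 results for single genes 342 were called, and 242 of these stayed called under every setting. Without TMM factors 986 genes were higher and 2859 lower in HCM, and 1304 differed between PKP4-KO and WT cells. Of the genes that differed, the share with a higher log2 HCM minus LCM than in WT cells fell to 6.75% from 32.3%. That share was 74.8% instead of 46.7% for Rescue cells. DESeq2 gave 44.5% for PKP4-KO cells. With the libraries of the compared groups alone, 1240 genes were higher and 997 lower, and 2120 of the 3232 calls were kept. In such fits 424 genes differed between times and 426 between PKP4-KO and WT cells. With no filter on low counts the latter were 396 and 503. The causes were not tested. An offset for gene length gave 1596 higher and 1496 lower.

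Leaving out 1 library at a time gave 2299 to 3033 called genes, 1175 to 1511 higher and 1124 to 1522 lower, 467 to 682 differing between times, 670 to 929 between PKP4-KO and WT cells, 1440 (without Rescue LCM replicate 2) to 3269 (without Rescue LCM replicate 1) between Rescue and WT cells, and 260 to 295 calls in the gene lists, against 309. Same-numbered HCM and LCM libraries deviated together with correlations of -0.167, 0.181 and -0.0393. Libraries with unlike numbers had -0.227 to 0.262. With 3 libraries a group these values cannot settle whether the numbers pair them, and no pairing was used in the main model. With the replicate number as a block 1556 genes were higher and 1576 lower, and 3102 of the 3232 calls were kept. Depth limits Flg, Hrnr, Ccl2 and Ccl20, each with few LCM reads.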
